A study of Mus musculus with 60 samples.

Results

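Sham lungs taken 6 h after the end of the exposure period were compared with sham lungs taken at 0 h, which were collected as the period ended. The comparison rests on 10 of the 60 arrays of the series, chosen by their labels, 5 mice at 6 h and 5 mice at 0 h. All 10 mice were male Balb/c mice that received no particles: they breathed humidified helium, oxygen and HEPA-filtered air for 4 h in nose-only restraint tubes, to which they had been accustomed on earlier days, and were killed by an overdose of pentobarbital. The other arrays were sham lungs at 4 later times and lungs of mice exposed to superparamagnetic iron oxide (SPIO) nanoparticles at the same 6 times. The SPIO mice breathed the same gas mixture in another exposure unit. The paper reports that unit as slightly warmer and more humid at the nose port than the sham unit. RNA came from the right diaphragmatic lobe, a mixture of all its cells, so that fewer cells of a type and less RNA per cell cannot be told apart. The hours since restraint and the time of day, which the sources used here do not give, cannot be told apart.

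Nearly every cell of the lung keeps a circadian clock. In it, BMAL1 (gene symbol Arntl) pairs with CLOCK or NPAS2 and switches on the Per, Cry and Nr1d genes from E-box sequences in their promoters; PER and CRY proteins then block the pair, and the NR1D proteins repress Arntl and Npas2 at RORE sequences that the ROR proteins activate. A further set of genes, among them Dbp, Tef and Hlf, carries the rhythm to D-box sequences of output genes. Restraint and handling add an acute layer: stress raises glucocorticoid hormones, immediate early genes and heat shock chaperones within hours, and fasting turns on genes of fat oxidation.

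Promoters of 4 clock genes are shown because they hold the sequence elements through which these loops act and their transcripts moved between the groups. The sequences are RefSeq's, build GRCm38.p6, each 300 bases around a transcript start, in the direction of the gene. Capitals mark an E-box (CACGTG), a D-box (TTANGTAA) or a RORE (TAGGTCA, its core), searched on both strands. Arntl lies at chr7:113207261-113207560 on the + strand, Ciart at chr3:95882179-95882478 on the - strand, Per3 at chr4:151044616-151044915 on the - strand and Coq10b at chr1:55052520-55052819 on the + strand.
Arntl: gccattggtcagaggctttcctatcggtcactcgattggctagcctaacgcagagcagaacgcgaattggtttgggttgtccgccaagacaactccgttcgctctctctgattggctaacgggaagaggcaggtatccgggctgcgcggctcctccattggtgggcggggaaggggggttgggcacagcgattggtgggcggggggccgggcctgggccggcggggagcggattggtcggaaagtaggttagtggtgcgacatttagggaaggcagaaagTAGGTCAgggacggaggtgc
Ciart: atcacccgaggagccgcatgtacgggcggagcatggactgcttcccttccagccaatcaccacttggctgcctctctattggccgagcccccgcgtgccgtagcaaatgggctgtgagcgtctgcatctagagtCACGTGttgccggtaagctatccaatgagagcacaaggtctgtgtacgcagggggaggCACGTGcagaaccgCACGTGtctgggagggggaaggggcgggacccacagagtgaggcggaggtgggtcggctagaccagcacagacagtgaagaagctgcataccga
Per3: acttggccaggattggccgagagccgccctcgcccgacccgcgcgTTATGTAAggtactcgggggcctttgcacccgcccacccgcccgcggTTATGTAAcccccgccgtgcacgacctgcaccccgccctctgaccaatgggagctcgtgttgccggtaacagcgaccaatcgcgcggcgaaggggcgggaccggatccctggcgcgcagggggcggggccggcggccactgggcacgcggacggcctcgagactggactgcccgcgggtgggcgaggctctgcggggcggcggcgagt
Coq10b: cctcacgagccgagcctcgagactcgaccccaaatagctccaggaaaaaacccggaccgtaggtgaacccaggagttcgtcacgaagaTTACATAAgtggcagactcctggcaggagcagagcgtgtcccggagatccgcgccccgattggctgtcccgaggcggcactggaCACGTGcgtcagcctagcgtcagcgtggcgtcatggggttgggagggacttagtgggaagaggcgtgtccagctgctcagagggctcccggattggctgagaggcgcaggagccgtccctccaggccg
The Arntl window held 1 RORE, the Ciart window 3 E-boxes, the Per3 window 2 D-boxes and the Coq10b window 1 E-box and 1 D-box. Arntl had 2 windows listed, and the one shown was chosen by its number of matches. Among 23 activators, repressors and output genes of the clock with a promoter in the table, 8 held an E-box (34.8%), 3 a D-box and 3 a RORE. Of all 27025 genes with a promoter in the table, 8.09% held an E-box, 2.72% a D-box and 2.97% a RORE. A match is a description of letters and not a mapped binding site.

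Of 18193 genes tested, 2072 differed between 6 h and 0 h at an adjusted p under 0.05 (11.4%), 1132 of them higher at 6 h (6.22%) and 940 lower (5.17%). The calls come from limma, fitted to the deposited log2 values of all 60 arrays, with p-values adjusted over the whole table by Benjamini-Hochberg, and a difference is in log2 units, 6 h minus 0 h, with its standard error (SE). The 5 and 5 arrays did not overlap for 844 genes on the higher side (4.64%) and 527 on the lower side (2.9%). The median difference over all genes was 0.03. Fewer genes passed in 2 narrower settings that are quoted beside the main lists: 1200 when the fit held only the 10 arrays, and 618 by the methods' test, an analysis of variance for unequal variances followed by a test of the pair of groups. Each gene is given from 1 probe set. Of 57 called genes with a printed difference and several probe sets, the sets of 32 differed by over 1.5 times or in sign. The 6 that differed in sign were Fkbp5, Sema5a, Rora, Atf4, Col1a1 and Pfkp, and 0 had a set called in the opposite direction. The labels call the mice biological replicates. The paper describes 1 sham group and 1 SPIO group of mice, each with its own exposure unit, and does not state the number of runs. Particles and exposure unit therefore cannot be told apart where sham and SPIO lungs are compared.

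Array 1 of the 0 h group stood apart from the other 9. It read Alb, serum albumin of the liver, at 14.02 against 5.27 to 6.78 in the other 4 arrays of sham 0 h, and Xist, a transcript of female cells, at 11.94 against 5.25 to 5.62, although all mice are labelled male and the Y-linked Eif2s3y was read at 8.40 on it. The 19 measured hepatocyte genes averaged 9.94 on this array, against 5.02 to 5.44 on the other 0 h arrays, and 25 skeletal muscle genes averaged 7.62 against 4.73 to 5.45. Without this array, 2440 genes were called (13.4%), 1232 higher (6.77%) and 1208 lower (6.64%), and 1916 of the 2072 passed again. The main lists are therefore given with and without it. Serpina1b, an antitrypsin gene of the liver, and Mylpf, of fast skeletal muscle, were called lower (-1.01 and -1.10, adjusted p = 0.044 and 0.041), but not without array 1 (adjusted p = 0.3 and 0.32). Heart muscle genes varied between lobes in both groups: 29 cardiac genes averaged between 5.10 and 9.43 per array at 6 h and between 5.55 and 8.72 at 0 h, and 0 of 29 were called by limma or the methods' test (1 at an unadjusted p under 0.05). Defining genes of lung were high on all 10 arrays, with Sftpa1, a surfactant protein of alveolar type 2 cells, between 14.36 and 14.52 at 6 h and between 14.20 and 14.34 at 0 h.

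Of 31 measured genes in the clock lists, 21 were called, 4 higher and 17 lower (67.7%, against 11.4% of all genes), and without array 1, 21 were again called, 3 higher and 18 lower. With only the 10 arrays 14 of 31 were called, and by the methods' test 11. Arntl, the core activator, was read at 8.65, 8.23, 8.95, 8.64 and 8.87 in sham 6 h lungs and at 7.23, 6.03, 6.44, 6.59 and 7.58 in sham 0 h lungs. Its partner Npas2 was read at 5.66, 5.02, 6.25, 6.12 and 6.20 at 6 h and at 3.91, 3.93, 3.92, 3.75 and 4.03 at 0 h. Both genes were higher in every 6 h lung than in any 0 h lung, and the 0 h readings of Npas2 were low and close together. Arntl differed by 1.89 ± 0.27 (SE), 3.71-fold, with an adjusted p of 4.7e-06, and Npas2 by 1.94 ± 0.27, with an adjusted p of 4.8e-06. No fold is given for Npas2, because its 0 h readings lie near the low end of the scale and the deposited values carry no detection call. The other probe set of each gene differed by less, 0.35 for Arntl and 0.39 for Npas2. Clock, the other partner, differed by 0.15 ± 0.11 and was not called (adjusted p = 0.42). Rora, an activator at ROREs, fell by 0.55 ± 0.14 (adjusted p = 0.006), with array 1 of 0 h below all 6 h arrays and the other 4 arrays of 0 h above them. Rorb was not called.

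The repressors moved the other way: 7 of 10 were lower at 6 h and none was higher (limma, adjusted p under 0.05), with 7 lower also without array 1. Of all genes 5.17% were lower. The median difference of the list was -0.76, and -0.87 without array 1. Nr1d2, which encodes REV-ERB beta, was read at 10.32, 10.80, 9.75, 10 and 9.86 at 6 h, against 11.91, 11.97, 11.96, 11.90 and 11.88 at 0 h. The 0 h lungs were all but equal and all above the 6 h lungs, and the difference of -1.78 ± 0.16 had the smallest adjusted p of the clock genes (6.8e-11). Nr1d1, which encodes REV-ERB alpha, was read at 5.12, 5.32, 5.13, 6.34 and 5.36 at 6 h and at 7.73, 7.10, 6.97, 7.28 and 6.42 at 0 h. It fell by 1.65 ± 0.28 (adjusted p = 8e-05) without overlap, although mouse 4 at 6 h came close to mouse 5 at 0 h. Per3, a period protein, was read at 7.73, 7.87, 7.69, 7.53 and 7.40 at 6 h and at 8.58, 9.06, 8.78, 8.96 and 8.83 at 0 h, a difference of -1.20 ± 0.17, with its probe sets between -1.40 and -0.30. Ciart, a repressor of the CLOCK and BMAL1 pair whose promoter held 3 E-boxes, was read at 5.70, 5.68, 5.83, 6.08 and 5.76 at 6 h and at 6.99, 7.54, 6.71, 6.81 and 7.03 at 0 h, a difference of -1.20 ± 0.16. Neither gene overlapped between the groups. Per2 fell by 0.85, Bhlhe40, which encodes the E-box repressor DEC1, by 0.67 and Cry2 by 0.45, each with an adjusted p of 0.0045 or below. Per1 (-0.30, adjusted p = 0.62), Cry1 (0.07, adjusted p = 0.87) and Bhlhe41 were not called.

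**Figure D1:**
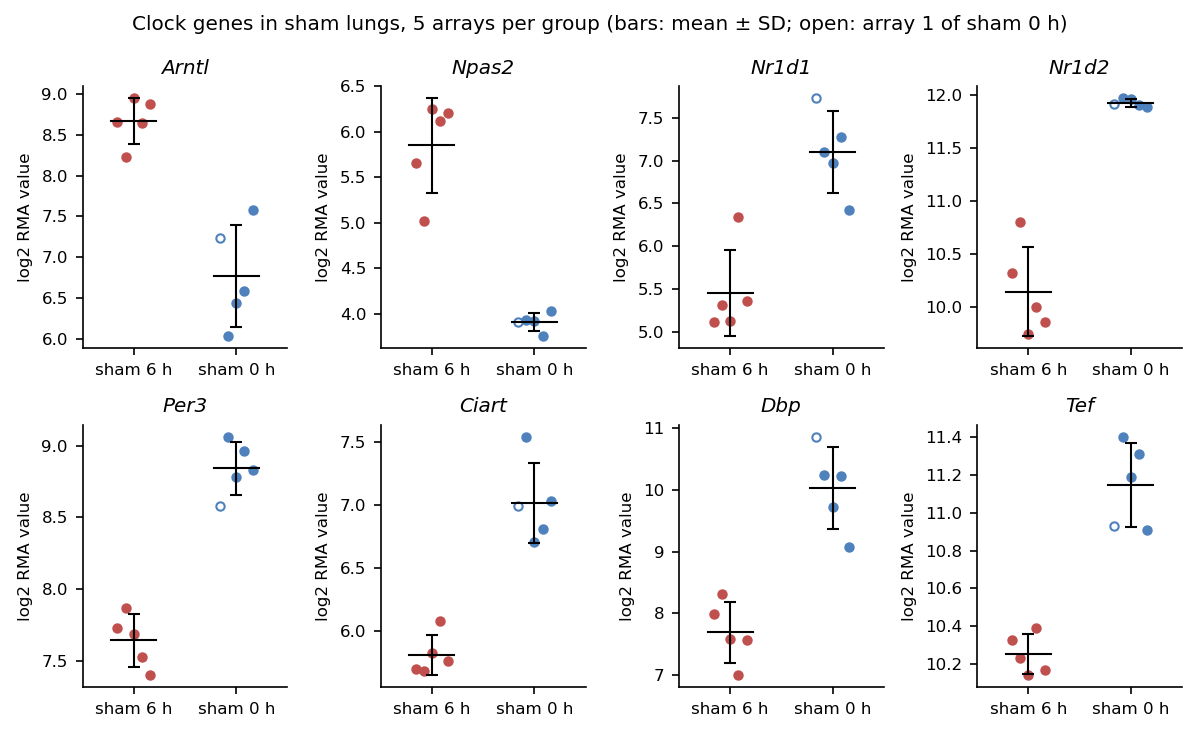
Log2 RMA values (y axis) of 8 clock genes on each array, 5 sham 6 h lungs on the left of each panel and 5 sham 0 h lungs on the right. Points are mice, the line and bars are the mean and SD, and the open point is array 1 of sham 0 h. In all 8 genes the groups do not overlap, with Arntl and Npas2 higher at 6 h and the other 6 lower.

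Output genes of the clock fell with the repressors, 8 of 11 lower and 1 higher, and 9 lower and 1 higher without array 1. With all arrays 81.8% were called, against 11.4% of all genes. Dbp, a D-box activator with a large daily swing in many tissues, was read at 7.99, 8.31, 7.58, 6.99 and 7.57 at 6 h, against 10.86, 10.25, 9.72, 10.22 and 9.08 at 0 h. Every 0 h lung was above every 6 h lung, and the difference was -2.34 ± 0.34, 5.05-fold lower (adjusted p = 5.6e-06). Tef, its relative, was read at 10.33, 10.23, 10.14, 10.39 and 10.17 at 6 h and at 10.93, 11.40, 11.19, 11.31 and 10.91 at 0 h, and fell by 0.90 ± 0.11 (adjusted p = 3e-07), also without overlap. Coq10b, of the mitochondrial coenzyme Q system, fell by 0.90, the NAD-producing enzyme gene Nampt by 0.62, the deubiquitinase gene Usp2 by 0.67, the cell cycle kinase gene Wee1 by 0.53, Tspan4 by 0.40 and Hlf by 0.67. Leo1, of the PAF1 transcription complex, was higher by 0.41 ± 0.10 (adjusted p = 0.0046). Nfil3, which competes at D-boxes, and Lonrf3 were not called. Of 5 kinases and ligases that act on clock proteins, Csnk1e fell by 0.35 and Fbxl21 was higher by 0.33, the second with an adjusted p of 0.049 that became 0.068 without array 1. Gsk3b, Csnk1d and Btrc were not called.

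At later times the sham means of Arntl, Nr1d2 and Dbp were away from their 6 h means, but single lungs could overlap. Arntl reached 8.56 in a lung after 168 h, within the 6 h range of 8.23 to 8.95. Arntl averaged 6.77 ± 0.63 at 0 h and 8.67 ± 0.28 at 6 h, against 5.88 ± 0.29 after 24 h and 7.60 ± 0.63 after 168 h (SD, n = 5 each). Nr1d2 averaged 11.92 ± 0.04, 10.14 ± 0.42, 12.15 ± 0.14 and 11.75 ± 0.23 at the same times, and Dbp 10.03 ± 0.66, 7.69 ± 0.50, 10.72 ± 0.53 and 10.67 ± 0.61. The 6 h group had the lowest mean of Nr1d2 and Dbp and the highest of Arntl among the 6 sham groups. By their labels the later times lie whole days after 0 h, so that only the 6 h group differs from 0 h in nominal hour of the day. These later levels are given as a description.

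**Figure D2:**
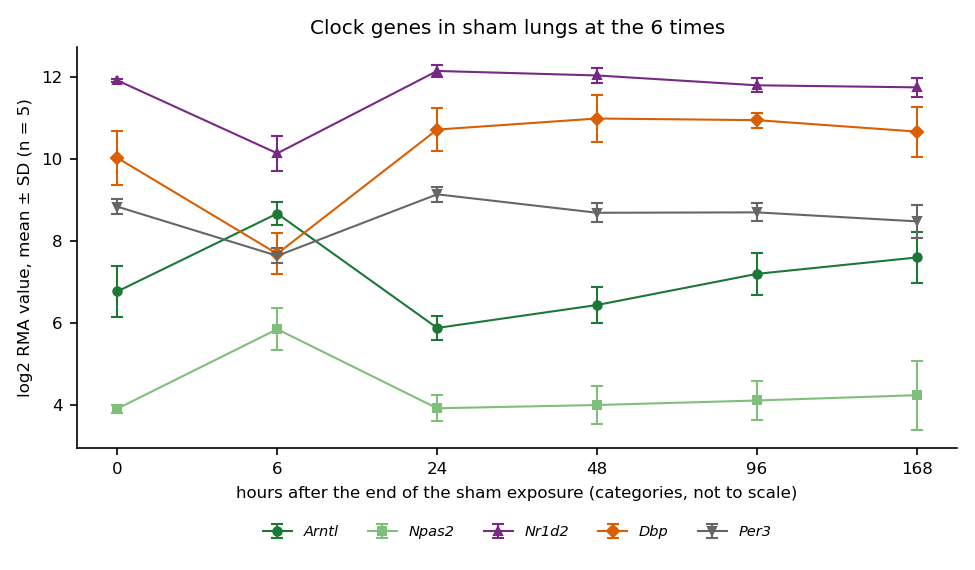
Mean log2 RMA value (y axis, bars SD, n = 5 mice per time) of 5 clock genes in sham lungs against hours after the exposure, drawn as categories. By their labels all times but 6 h lie whole days apart. The 6 h group stands apart, with Arntl at 8.67 and Npas2 at 5.85 above, and Nr1d2 at 10.14, Dbp at 7.69 and Per3 at 7.64 below, their means at the other times.

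In lungs of SPIO exposed mice over the same hours, with no array in common, Npas2 changed by 2.10, Arntl by 1.62, Nr1d2 by -1.97 and Per3 by -1.07. The difference between the sham and the SPIO change was -0.15 ± 0.39 for Npas2, 0.27 ± 0.38 for Arntl, 0.19 ± 0.23 for Nr1d2 and -0.13 ± 0.24 for Per3, with adjusted p of 0.81 or above, which does not show that the changes were equal. Across all genes, 161 of 18193 differed between the sham and the SPIO change (0.885%), 62 with the higher and 99 with the lower value in sham lungs. This count ran from 58 to 323 when single arrays of the 4 groups were left out. In the clock lists 2 of 31 did, Ciart and Coq10b. Ciart averaged 6.15 ± 0.24 in SPIO 6 h lungs and 6.21 ± 0.31 in SPIO 0 h lungs (SD, n = 5 each), a change of -0.06 against -1.20 in sham lungs (difference -1.14 ± 0.23, adjusted p = 0.0057). Coq10b changed by -0.15 with SPIO and by -0.90 in sham lungs (difference -0.75 ± 0.19, adjusted p = 0.035).

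Heat shock chaperones, which refold damaged proteins, were lower at 6 h: 12 of 23 were called lower and 0 higher (52.2%, against 11.4% of all genes). The median difference was -0.59 against 0.03 over all genes. Hspa1a, an inducible HSP70, was read at 7.55, 7.45, 7.37, 8.17 and 8.56 at 6 h and at 7.99, 10.33, 12.41, 11.97 and 12.53 at 0 h. Its near-identical copy Hspa1b, whose signal may be shared with it on the array, was read at 9.12, 8.78, 8.57, 9.78 and 10.13 at 6 h and at 9.53, 11.29, 13.12, 12.84 and 13.79 at 0 h. In both genes 4 of the 0 h lungs stood above all 6 h lungs, while array 1 of 0 h lay within the 6 h range, so that the groups overlapped. Hspa1a fell by 3.22 ± 0.52, 9.34-fold (adjusted p = 3.8e-05), and by 3.99 without array 1. Hspa1b fell by 2.84 ± 0.53 (adjusted p = 0.00027) and by 3.48 without array 1. The co-chaperone genes Dnajb1 and Dnaja1 fell by 1.16 ± 0.21 and 1.08 ± 0.21, with array 1 again within the 6 h range and, for Dnaja1, array 2 as well. Without array 1, 13 of 23 were lower and 1 was higher, with a median of -0.75. With only the 10 arrays in the fit 5 of 23 were lower, 12 of 23 when array 1 was left out as well, and by the methods' test 0 of 23.

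In SPIO exposed lungs 1 of the 23 was called higher over the same hours and 0 lower. Of all 18193 genes 448 were called higher there and 185 lower. There Hspa1a averaged 9.15 ± 0.40 at 6 h and 8.56 ± 1.13 at 0 h, a change of 0.59 that was not called (adjusted p = 0.68), and the list median was 0.08. The difference between the sham and the SPIO change was -3.81 ± 0.74 for Hspa1a (adjusted p = 0.0044) and -1.70 ± 0.30 for Dnajb1 (adjusted p = 0.0014). In all, 7 of 23 chaperone genes differed in this way, every one with the lower value in sham lungs, and 10 of 23 without array 1. The part of the slightly warmer and more humid SPIO unit in these differences was not tested. Sham lungs at 24 h had Hspa1a at 11.88 ± 0.80 and at 168 h at 7.75 ± 0.69, so that low levels were not kept at all later times. Cirbp, the cold-inducible RNA-binding protein, moved against the chaperones. It was read at 8.67, 9.42, 9.20, 8.64 and 7.88 at 6 h, against 6.93, 7.71, 7.14, 7.45 and 6.74 at 0 h. No 0 h lung reached a 6 h lung, and the difference was 1.57 ± 0.32, 2.97-fold higher (adjusted p = 0.00064), with a change of -0.47 in SPIO lungs. Of 10 measured cold-inducible and splicing genes, 2 were higher and 2 lower: the splicing factor genes Srsf5 (0.62 ± 0.16), Tra2a (-0.71 ± 0.18) and Tra2b (-0.26 ± 0.07) were called beside Cirbp, and all 4 differed from the SPIO change.

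**Figure D3:**
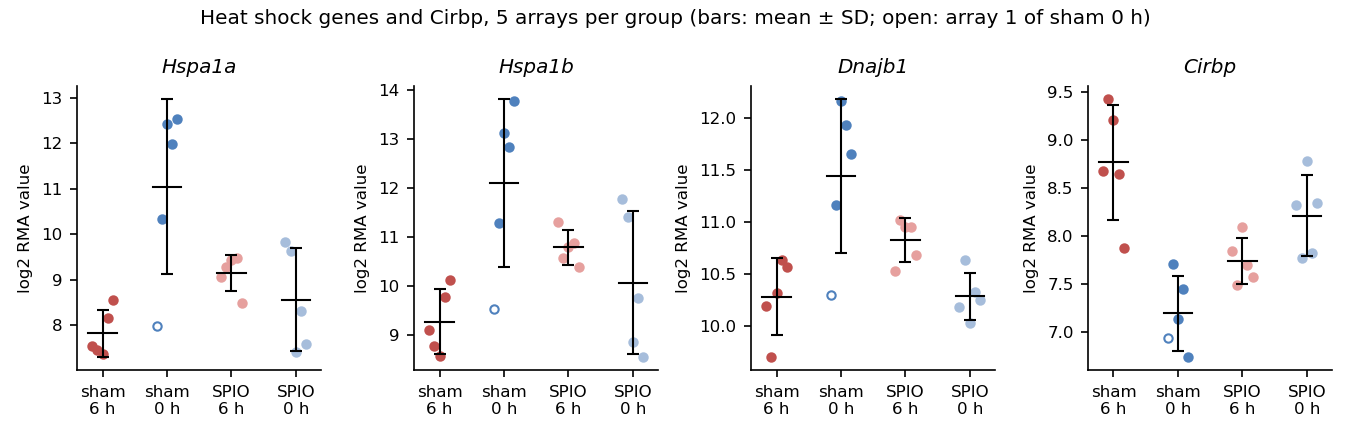
Log2 RMA values (y axis) of 4 genes on each array of sham 6 h, sham 0 h, SPIO 6 h and SPIO 0 h lungs, left to right, 5 mice per group. Lines and bars are the mean and SD, and the open point is array 1 of sham 0 h. For Hspa1a and Dnajb1 arrays 2 to 5 of sham 0 h lie above all other lungs, for Hspa1b arrays 3 to 5 do, and the mean of Cirbp is lowest in the sham 0 h group.

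Immediate early genes, which respond to signals within minutes, were lower in 11 of 33 and higher in 1, with a median of -0.28. This was 36.4% called, against 11.4% of all genes. Without array 1, 14 were lower and 1 was higher. By the methods' test 3 of 33 passed, against 618 of all 18193 genes. Junb, a subunit of the AP-1 transcription factor, was read at 7.02, 7.36, 7.24, 7.23 and 6.87 at 6 h and at 7.59, 8.39, 8.29, 8.23 and 7.87 at 0 h, all 0 h lungs being higher. It fell by 0.93 ± 0.16 (adjusted p = 7.1e-05). Fosl2, of the same factor, fell by 0.97, Ppp1r15a, which restores translation after stress, by 0.65 and Klf10 by 0.80, also without overlap. The other probe set of Fosl2 differed by -0.04. The best known members, Fos, Jun and Egr1, were not called.

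Of 31 genes known to respond to glucocorticoids, 6 were lower and 0 higher (19.4% called, against 11.4% of all genes). Without array 1, 10 were lower. With only the 10 arrays 3 were lower (483 of all 18193 genes), and by the methods' test 1 passed (618 of all 18193 genes). Fkbp5, a co-chaperone of the glucocorticoid receptor, was read at 8.05, 8.04, 9.06, 9.39 and 9.82 at 6 h and at 10.01, 11.45, 10.99, 11.00 and 9.87 at 0 h. The groups came within a narrow gap of each other but did not overlap, and Fkbp5 fell by 1.79 ± 0.42 (adjusted p = 0.0026) by this probe set, while its 3 probe sets ran from -1.79 to 0.09. Map3k6, a stress kinase gene, fell by 1.53 ± 0.34, Glul, glutamine synthetase, by 0.56 ± 0.12 and Pnpla2, a triglyceride lipase, by 0.45 ± 0.13. Tsc22d3, Sgk1 and Dusp1, other common targets, were not called. None of the 4 genes with values differed from the SPIO change at an adjusted p under 0.05.

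Genes of fasting and fat oxidation fell, 9 of 23 lower and 0 higher (39.1% called, against 11.4% of all genes), and 11 lower without array 1. With only the 10 arrays 6 were lower (483 of all 18193 genes), and by the methods' test 1 passed (618 of all 18193 genes). Fbxo32, a ubiquitin ligase of wasting muscle, fell by 0.99 ± 0.20, Cpt1a, which admits fatty acids to mitochondria, by 0.56 ± 0.12, and the insulin pathway genes Irs2 and Insr by 0.73 and 0.43. Cpt1a was read at 10.47, 10.20, 10.34, 9.95 and 10.31 at 6 h and at 10.69, 10.94, 10.85, 11.04 and 10.53 at 0 h, with no overlap. It fell further in SPIO exposed lungs, by 1.32, and the difference between the changes was 0.76 ± 0.17 (adjusted p = 0.02). Adipose markers were lower in 2 of 13 (15.4% called, against 11.4% of all genes), Lipe by 0.87 and Plin4 by 1.08. Without array 3 or 4 of 6 h 1 of 13 was lower, and without array 1 of 0 h 2 of 13. The median difference of the adipose list was -0.33, and 0.08 without array 1 of 0 h. The list averaged 5.56 to 7.80 per array at 6 h. At 0 h the list averaged 8.54 on array 1 and 6.02 to 7.31 on the other arrays. The part of fat tissue in the fasting list was not tested.

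Sterol synthesis genes rose together: 10 of 19 were higher and 0 lower (52.6% called, against 11.4% of all genes), with a median of 0.31. Without array 1, 13 were higher. With only the 10 arrays 7 were higher, without array 5 of 0 h 6, and by the methods' test 5 passed. Cyp51, a sterol demethylase, was read at 7.98, 7.94, 7.93, 7.73 and 8.01 at 6 h, against 7.44, 7.20, 7.48, 6.93 and 7.44 at 0 h. The groups did not overlap and the difference was 0.62 ± 0.12, 1.54-fold (adjusted p = 0.00055), while its 3 probe sets ran from 0.06 to 0.63. Sqle, squalene epoxidase, rose by 0.65, Idi1, an isopentenyl isomerase, by 0.56 and Sc5d, a late desaturase, by 0.54. In SPIO lungs 15 of 19 rose, with a median of 0.67, against 448 of all 18193 genes. Between the changes 0 of 19 differed. Among 16 fatty acid synthesis genes 4 rose and 2 fell (37.5% called, against 11.4% of all genes). Without array 1 of 0 h 5 rose and 2 fell. The list averaged 10.29 on array 1, against 9.14 to 9.45 on the other 0 h arrays. Its median difference was 0.03, and 0.27 without array 1. The desaturase genes Fads1 and Fads2 rose by 0.39 and 0.73, while Gpam, of triglyceride synthesis, and Elovl5, an elongase, fell by 0.29 and 0.22. Of the 6 calls with all arrays, 3 were left without array 5 of 0 h.

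**Figure D4:**
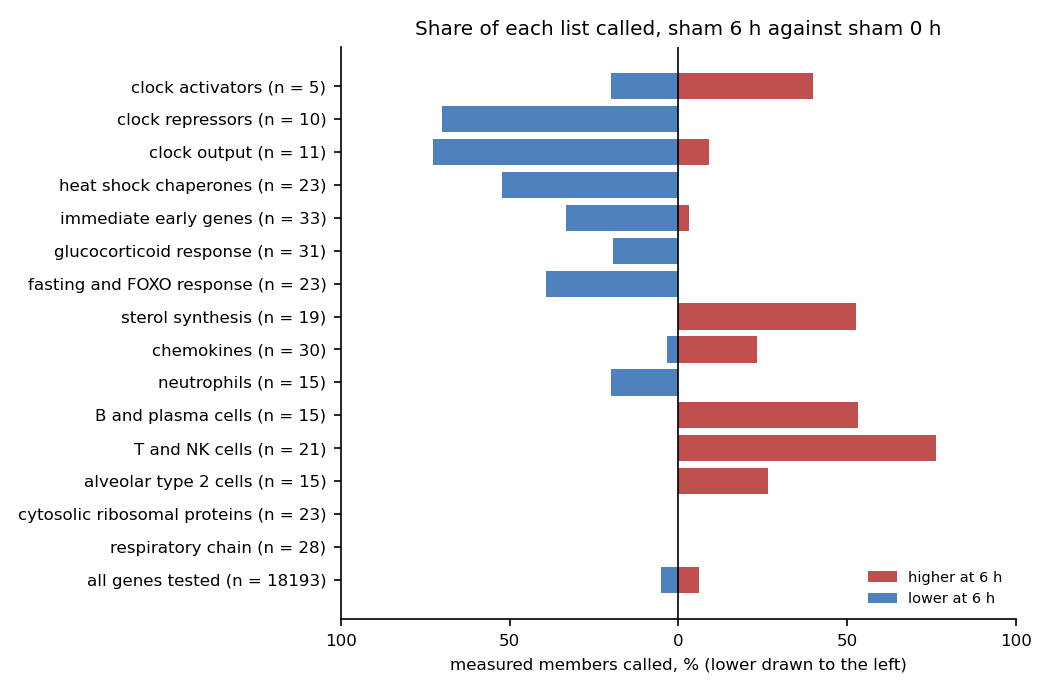
Share of the measured members of each gene list called higher (right, red) or lower (left, blue) at 6 h than at 0 h in sham lungs, in percent, with the number measured. Clock repressors, clock output, heat shock, immediate early and fasting genes lie mostly to the left, and sterol, B cell and T and NK cell genes to the right; of all genes 6.22% were higher and 5.17% lower.

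Lymphocyte genes were higher at 6 h. Of 21 T and NK cell genes 16 were higher and 0 lower (14 higher without array 1), with a median of 0.60. Of 15 B and plasma cell genes 8 were higher and 0 lower (9 without array 1), with a median of 0.72. The shares called were 76.2% and 53.3%, against 11.4% of all genes. With only the 10 arrays 9 T and NK cell and 6 B and plasma cell genes were higher, and by the methods' test 3 and 1 passed. The T and NK cell count was 7 without array 2 of 6 h or array 5 of 0 h, 8 without array 1 and 10 without array 3 of 6 h, and the B and plasma cell count 5 without array 1 or 2 of 6 h. Bank1, a B cell scaffold protein, was read at 8.12, 7.80, 7.34, 6.72 and 6.37 at 6 h and at 6.12, 4.85, 4.62, 4.87 and 4.45 at 0 h. All 6 h lungs were higher, array 1 being the highest at 0 h, and the difference was 2.29 ± 0.39 (adjusted p = 8.6e-05). Ms4a1, which encodes CD20, rose by 1.90 ± 0.40, with array 1 of 0 h inside the 6 h range, Pou2af1, a B cell coactivator, by 1.52 ± 0.33 and Blk, a B cell kinase, by 0.75 ± 0.18. Cd27, a receptor of T and memory B cells, was read at 5.92, 6.02, 5.98, 5.44 and 5.34 at 6 h and at 4.73, 4.72, 4.63, 4.78 and 3.85 at 0 h, a difference of 1.20 ± 0.23 (adjusted p = 0.00033) without overlap. The NK cell genes Ncr1, Nkg7 and Gzma rose by 0.89, 0.87 and 1.07. Also among the largest rises were Fcmr, the IgM receptor (1.94 ± 0.40), H2-Ob, which tunes antigen loading in B cells (1.72 ± 0.35), and the immunoglobulin segment Ighv14-2 (2.26 ± 0.45), whose probe set may take signal of related segments.

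Bank1 differed from the SPIO change, by 2.45 ± 0.56 (adjusted p = 0.02), as did Pou2af1 (1.83), Btla, an inhibitory lymphocyte receptor (1.47), Ighv14-2 (2.42) and the leukotriene receptor gene Cysltr1 (1.30). Bank1 averaged 6.97 ± 0.33 in SPIO 6 h and 7.13 ± 0.47 in SPIO 0 h lungs. The T and NK cell list had 0 of 21 members that differed, with a median of 0.06 in SPIO lungs. Markers of thymus and lymph node were higher in 4 of 11 (36.4% called, against 11.4% of all genes). The count was 1 without array 3 or 5 of 0 h, and 2 without array 4 of 0 h or array 1 or 2 of 6 h. These markers averaged 4.78 to 4.99 per array at 6 h and 4.48 to 4.86 at 0 h. Their part in the lymphocyte genes was not tested.

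Genes of neutrophils were lower in 3 of 15 and higher in 0 (20% called, against 11.4% of all genes), with a median of -0.61. Without array 1, 4 were lower, and by the methods' test 1 passed, against 618 of all 18193 genes. Mmp8, a collagenase of neutrophil granules, was read at 7.70, 7.66, 7.09, 6.82 and 6.86 at 6 h, against 9.19, 11.38, 10.90, 10.59 and 9.36 at 0 h. It fell by 3.05 ± 0.58, 8.31-fold (adjusted p = 0.00032), with all 0 h lungs higher. Il1r2, a decoy receptor for interleukin 1, fell by 2.10 ± 0.55 and Cxcr2, the chemokine receptor that draws neutrophils, by 1.32 ± 0.35, both without overlap, and Trem1 did not pass (-0.70, adjusted p = 0.066). The abundant neutrophil transcripts S100a8 and S100a9 were not called. Of 14 monocyte genes, 1 was higher, Cx3cr1 (0.73 ± 0.16), and 2 were lower (3 and 2 without array 1). That is 21.4% called, against 11.4% of all genes. Of 20 macrophage genes 1 was lower (5.0%).

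**Figure D5:**
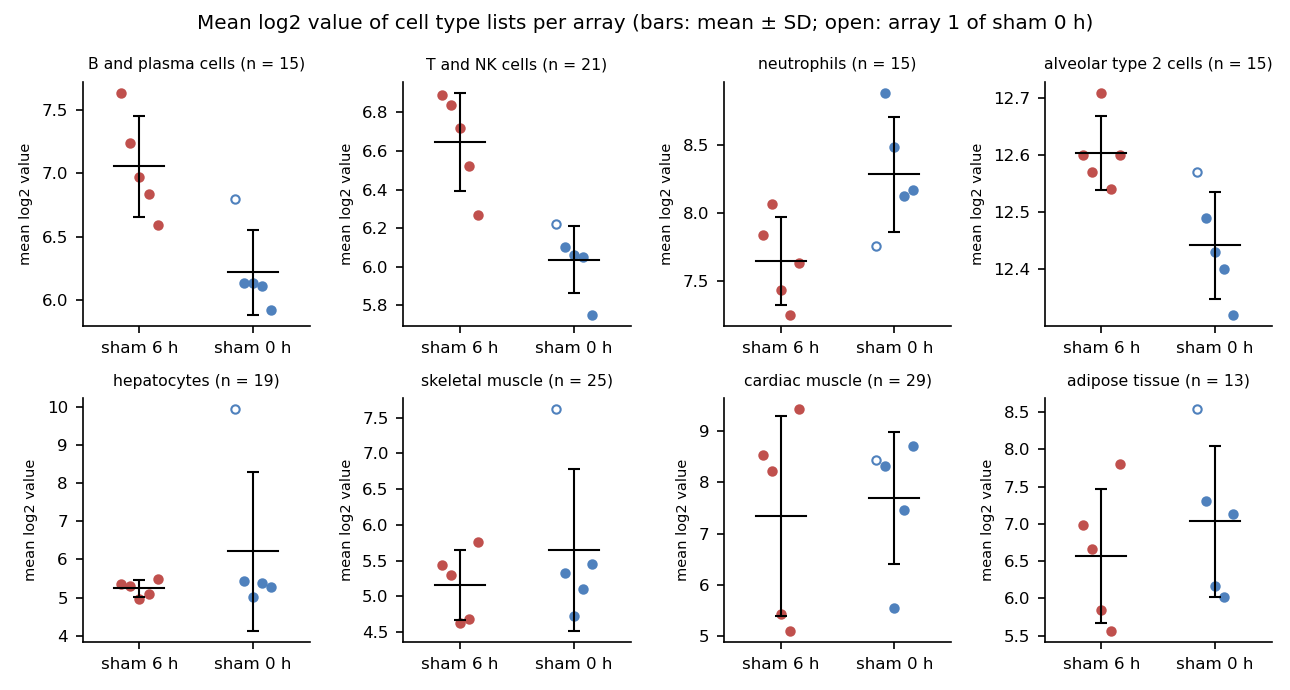
Mean log2 value (y axis) of the measured members of 8 cell type lists on each array, sham 6 h on the left and sham 0 h on the right of each panel. Lines and bars are the mean and SD over 5 mice, and the open point is array 1 of sham 0 h. B cell and T and NK cell lists lie higher at 6 h, and the hepatocyte list reaches 9.94 on array 1 alone.

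Chemokines were higher in 7 of 30 and lower in 1 (26.7% called, against 11.4% of all genes). Without array 3 of 6 h or array 5 of 0 h, 5 were called. Cxcl14 was read at 8.16, 8.10, 8.71, 7.32 and 7.48 at 6 h and at 6.42, 5.91, 6.94, 6.41 and 5.86 at 0 h, and rose by 1.65 ± 0.24 (adjusted p = 5.8e-06) without overlap. Ccl12, a monocyte attractant, rose by 1.65 ± 0.34, also without overlap, Cxcl15, of lung epithelium, by 0.46 and Ccl24 by 0.50. Of 32 genes of NF-kB and cytokines 3 were lower and 0 higher (9.38%, near the 11.4% of all genes): Socs3, a brake on cytokine signals, fell by 0.82 ± 0.22 and Il1b by 1.06 ± 0.31, beside Il1r2. Of 15 acute phase genes 0 were called by limma or the methods' test, and 1 had an unadjusted p under 0.05, while 1 was called lower without array 1 or array 5 of 0 h.

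The largest rise of all named genes was that of Ccn5, a matricellular protein, read at 9.57, 9.27, 9.67, 9.05 and 9.46 at 6 h and at 7.36, 6.37, 7.28, 6.61 and 6.94 at 0 h. It rose by 2.49 ± 0.31, 5.63-fold (adjusted p = 3e-07), and every 6 h lung was higher. Lrat, which esterifies vitamin A, rose by 1.76 ± 0.25 and Wnt2, a Wnt ligand of lung mesenchyme, by 1.75 ± 0.24. Wnt2 was read at 9.51, 9.36, 9.40, 9.08 and 9.16 at 6 h and at 7.56, 7.22, 7.59, 7.91 and 7.49 at 0 h, 2 sets that lay far apart. Of 24 genes of the matrix and TGF-beta, 4 were higher and 2 lower (25% called, against 11.4% of all genes). Without array 1 or 5 of 6 h, or array 2, 3 or 4 of 0 h, 3 were higher and 0 lower. Eln, elastin, was higher by 0.79, Tgfb2 by 0.69 and Col1a1 by 0.63. Fibroblast and smooth muscle genes were higher in 2 of 19 (10.5%, near the 11.4% of all genes), and in 1 without array 1 of 0 h and in 6 of the other 9 omissions of single arrays.

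Further falls among the largest were in Tdo2, a tryptophan-degrading enzyme (-1.87 ± 0.35), Olfm4 (-1.86 ± 0.50) and Sema5a, a guidance molecule (-1.57 ± 0.31). Fkbp14, a folding enzyme of the endoplasmic reticulum (-1.57 ± 0.23), and Klhl29 (-1.53 ± 0.29) were others. Genes counted among the largest only if their 6 h and 0 h arrays did not overlap. The probe sets of Sema5a ran from -1.57 to 0.10, those of Fkbp14 from -1.57 to -0.08 and those of Tdo2 from -1.87 to -0.62. Tdo2 was read at 4.79, 4.69, 4.87, 4.66 and 4.70 at 6 h, near the low end of the scale, against 7.32, 6.56, 6.45, 7.07 and 5.65 at 0 h. Fkbp14 and Klhl29 differed from the SPIO change, by -1.29 and -1.78. Nrcam, a cell adhesion gene, differed by -1.50 ± 0.28 (adjusted p = 0.002) although it was not called in sham lungs (-0.21 ± 0.20). It averaged 7.82 ± 0.35 in SPIO 6 h lungs and 6.53 ± 0.22 in SPIO 0 h lungs (SD, n = 5 each).

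Lists of endothelium, alveolar cells, hypoxia, the amino acid response and coagulation had 22.2% to 28.6% of their members called, against 11.4% of all genes. The numbers were small. Other lists of lung structure had 0% (ciliated cells) and 7.14% (club and airway secretory cells, and mesothelium). Other stress lists had 10% (metallothioneins and zinc transporters), 15% (NRF2 and glutathione), 18.8% (p53 targets) and 19% (unfolded protein response). In endothelium 2 of 22 genes were higher and 3 lower: Apln, a vascular peptide, rose by 0.73 ± 0.11 and Kdr, a VEGF receptor, by 0.46, while Nos3, the endothelial nitric oxide synthase, fell by 0.63 ± 0.12 and Flt1, another VEGF receptor, by 0.58. Alveolar type 1 genes were higher in 3 of 13, among them Akap5 (0.78) and the water channel gene Aqp5 (0.35), and alveolar type 2 genes in 4 of 15, among them Lpcat1, of surfactant lipid synthesis (0.50). Hypoxia and glycolysis genes were higher in 2 of 21 and lower in 4, with Ankrd37 at -1.32, Bnip3 at -0.64, Kdm3a at -0.46 and Pfkp at 0.34. Of 18 genes of the amino acid response 1 was higher and 4 were lower, with Atf4, its master regulator, at -0.43, Trib3 at -0.47, Slc3a2 at -0.38 and Ddit3 at -0.44. Of 18 genes of coagulation and fibrinolysis 1 was higher and 3 were lower, the plasminogen activator genes Plau (0.79) and Plat (-0.89) having opposite signs. These small counts moved with single arrays: 3 endothelial genes were called without array 2 of 6 h or array 2 or 3 of 0 h, and 1 alveolar type 1 gene without array 4 or 5 of 0 h. Of the alveolar type 2 genes 2 were called without array 3 or 4 of 6 h or array 4 or 5 of 0 h, of the amino acid response 3 without array 4 of 0 h, and of coagulation 2 without array 2 of 6 h or array 2, 3 or 4 of 0 h. Of 23 cytosolic ribosomal protein genes and 28 respiratory chain genes 0 were called by limma or the methods' test, and 0 and 3 had an unadjusted p under 0.05, as did 4264 of all 18193 genes. Without array 1 of 0 h or array 4 of 6 h, 2 respiratory chain genes were called higher.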

How the data were processed

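RNA of the 10 lobes was measured on Affymetrix mouse arrays. The deposited log2 values had been made by the authors with RMA, of a version not named in the sources used. RMA subtracts background, equalizes the arrays' distributions and summarises probes, which compresses differences of dim probe sets. Arrays have no read depth, and their number limits the precision. All columns were matched to a sample by their labels, with 0 left over.

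Of 45101 probe sets, 64 controls were left out, and of the 34945 with 1 gene symbol the brightest on average across the 60 arrays stood for each of 18193 genes. In R 4.3.3, limma 3.58.1 fitted 12 group means (48 residual degrees of freedom) across all genes, with contrasts for sham 6 h minus sham 0 h and for that change minus the SPIO change, Benjamini-Hochberg adjusted. The script was tested on simulated data. Python 3.11.15 with matplotlib 3.10.9 drew the plots. Deviations from the group means of mice with the same number correlated at 0.112, 0.185, 0.55, 0.289 and 0.306 (numbers 1 to 5), and the highest correlations with another number were 0.129, 0.146, 0.243, 0.456 and 0.242, above that of the own number for numbers 1 and 4. All same-number values were over 0.1, and the numbers were used as a replicate block in an alternative fit. No label states this pairing.

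The comparison, the gene lists and the rules were chosen with earlier results of these data known. Genes named with values were drawn from a set of 222. It held the 12 largest rises and 12 largest falls among genes called with and without array 1 of sham 0 h. Only genes whose 2 groups of arrays did not overlap could enter these 12 and 12, so that lack of overlap was a condition there. Predicted transcripts were passed over. The set also held the clock genes and the 4 members of each other list with the smallest p. The 6 genes of each direction with the largest difference from the SPIO change, and Alb, Xist and Y-linked genes, completed it. Of the 222 genes, 109 have a printed change here, and the rule did not fix which. Members named without values were chosen after their values were seen. Alternatives were another choice of probe sets, filter, scaling, set of arrays or test.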

Additional observations from a re-analysis of the deposited data

Results flagged for a closer look

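Among the genes named, 228 groups of 5 arrays were checked for an array far from the other 4, and 19 had one. The limit used is passed by about 1 in 20 groups by chance, but the count cannot be compared with that rate. Alb and Xist were included because array 1 had been seen to stand apart, and all groups come from the same 10 arrays. Array 1 of sham 0 h was that array in 12: it was the highest for Bank1 (6.12), Ighv14-2 (6.06), Fads2 (8.05), Ms4a1 (8.04), Serpina1b (12.31), Mylpf (10.14), Alb (14.02) and Xist (11.94), and the lowest for Csnk1e (9.27), Coq10b (9.59), Cry2 (7.96) and Atf4 (11.11). Among other 0 h arrays, array 2 was lowest for Tgfb2 (7.65), array 3 highest for Fbxl21 (4.09), and array 5 lowest for Cd27 (3.85) and Nrcam (6.86). Among 6 h arrays, array 4 was highest for Nr1d1 (6.34) and lowest for Cyp51 (7.73), and array 2 was highest for Fads1 (10.22).

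The sham change differed from the SPIO change, by the interaction in limma, in 161 genes. Of those named, the sham value was the lower for Hspa1a (-3.81), Hspa1b (-3.55), Klhl29 (-1.78), Dnajb1 (-1.70), Dnaja1 (-1.51), Nrcam (-1.50), Fkbp14 (-1.29), Ciart (-1.14), Tra2a (-0.97), Coq10b (-0.75), Nos3 (-0.68), Atf4 (-0.48) and Tra2b (-0.41). It was the higher for Cpt1a (0.76), Srsf5 (1.01), Cysltr1 (1.30), Btla (1.47), Pou2af1 (1.83), Cirbp (2.04), Ighv14-2 (2.42) and Bank1 (2.45).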

How the results depend on the processing

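The 2072 calls between 6 h and 0 h became 1200 when only the 10 arrays entered the fit, 1162 with a replicate block in those 10 arrays, 618 by the methods' test and 482 with a fold minimum of 1.5; the fits of 10 arrays rest on fewer samples, and for the others the cause was not tested. They stayed within 1.5 times under the other settings, with 2043 under the replicate block over all arrays and 1459 to 2440 when single arrays of the 2 groups were left out. The 161 differences from the SPIO change became 272 with a filter on low values, 101 with only the 20 arrays, 323 without array 1 of sham 0 h, and 58 to 323 without single arrays. It was 71 and 58 without arrays 1 and 2 of sham 6 h, 91 and 89 without arrays 3 and 4 of sham 0 h, 90, 90 and 84 without arrays 2, 3 and 5 of SPIO 6 h, and 61, 102 and 90 without arrays 3, 4 and 5 of SPIO 0 h. Without array 1 of SPIO 6 h or of SPIO 0 h it was 281 and 260. The fits of 10 arrays with the block or without array 1, and the SPIO arrays left out singly, were chosen after seeing the data.

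Of 104 called genes with a printed change, 0 changed sign. When single arrays were left out 14 lost their call at least once: Aqp5, Col1a1, Ddit3, Elovl5, Fbxl21, Hlf, Il1b, Kdr, Mylpf, Plin4, Pnpla2, Serpina1b, Tra2b and Tspan4. With only the 10 arrays 18 lost it, among them Rora, Csnk1e, Per2, Cry2, Wee1 and Dnajb1. The replicate block over all arrays changed the call of Serpina1b and of no other. Cry1, not called, ran from -0.08 without array 1 of sham 0 h to 0.17 without array 5.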
